A study of Mus musculus with 6 samples.

Results

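Genes of fatty acid oxidation and targets of the nuclear receptor PPAR-alpha were examined in left ventricle of sickle and control mice. The group comprised 34 genes listed by their known roles, chosen with earlier results of these data known. Of these, 30 had a row that the array annotation gave to exactly that 1 symbol, among 21506 genes measured in all. Acsl1, Cpt1b, Hadhb and Ucp2 were not analysed here. Each of the 30 genes had 1 row, so no choice between rows was needed.

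Left ventricular RNA of 3 sickle and 3 control mice, all male, was measured on 6 arrays of the Affymetrix Mouse Gene 2.0 ST type. Sickle mice carried the human globin alleles Hbatm1(HBA)Tow and, homozygously, Hbbtm2(HBG1,HBB*)Tow, the latter holding the sickle form of human beta-globin. Control mice carried Hbatm1(HBA)Tow homozygously with Hbbtm3(HBG1,HBB)Tow, which holds a non-sickling human beta-globin. Both groups were on a mixed B6;129 background and were studied at 10 to 14 weeks of age, so the controls shared the human alpha-globin allele and also carried human beta-globin. Mice with mouse globins only were not analysed here. The labels also describe electrocardiograms, arrhythmia testing and optical mapping of hearts, without saying whether the hearts used for RNA had undergone any of these. Nothing in the labels ties a number to a litter or a day, so p-values measure the spread between these arrays. Values are log2 intensities after RMA, a difference of 1 being a 2-fold change, and differences are sickle minus control.

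The adult heart draws most of its energy from long-chain fatty acids. These enter the cell through membrane carriers or are released from stored triglyceride, are joined to coenzyme A, cross the mitochondrial membranes as carnitine esters, and are shortened by repeated turns of beta-oxidation that feed electrons to the respiratory chain. PPAR-alpha, aided by the coactivator PGC-1-alpha and beside the estrogen-related receptor ERR-alpha, switches on genes at each of these steps when fatty acids are plentiful, as in fasting.

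Mean levels were lower in sickle than in control ventricle for 29 of the 30 genes, against 51.6% of all genes tested, with a median difference of -0.26 against -0.01 over all genes. Means were also lower for all 29 oxidative phosphorylation genes and all 11 Krebs cycle genes measured. None of the 30 passed an adjusted p of 0.05 in limma's test over all 21506 genes, where 3 genes (0.0139%) were called lower. At an unadjusted p of 0.05, 9 of the 30 were lower, against 4.38% of all genes. In 16 of the 30, every sickle array lay below every control array, against 8.36% of all genes, and in 0 did every sickle array lie above, against 7.61%. These are descriptions of a set of genes that share pathways and regulators, and the genes are not replicates of each other. The set was also chosen with earlier results of these data known. The differences of single genes ran from -0.73 for Plin5 to 0.12 for Ppard, and the smallest adjusted p was 0.278.

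**Figure D1:**
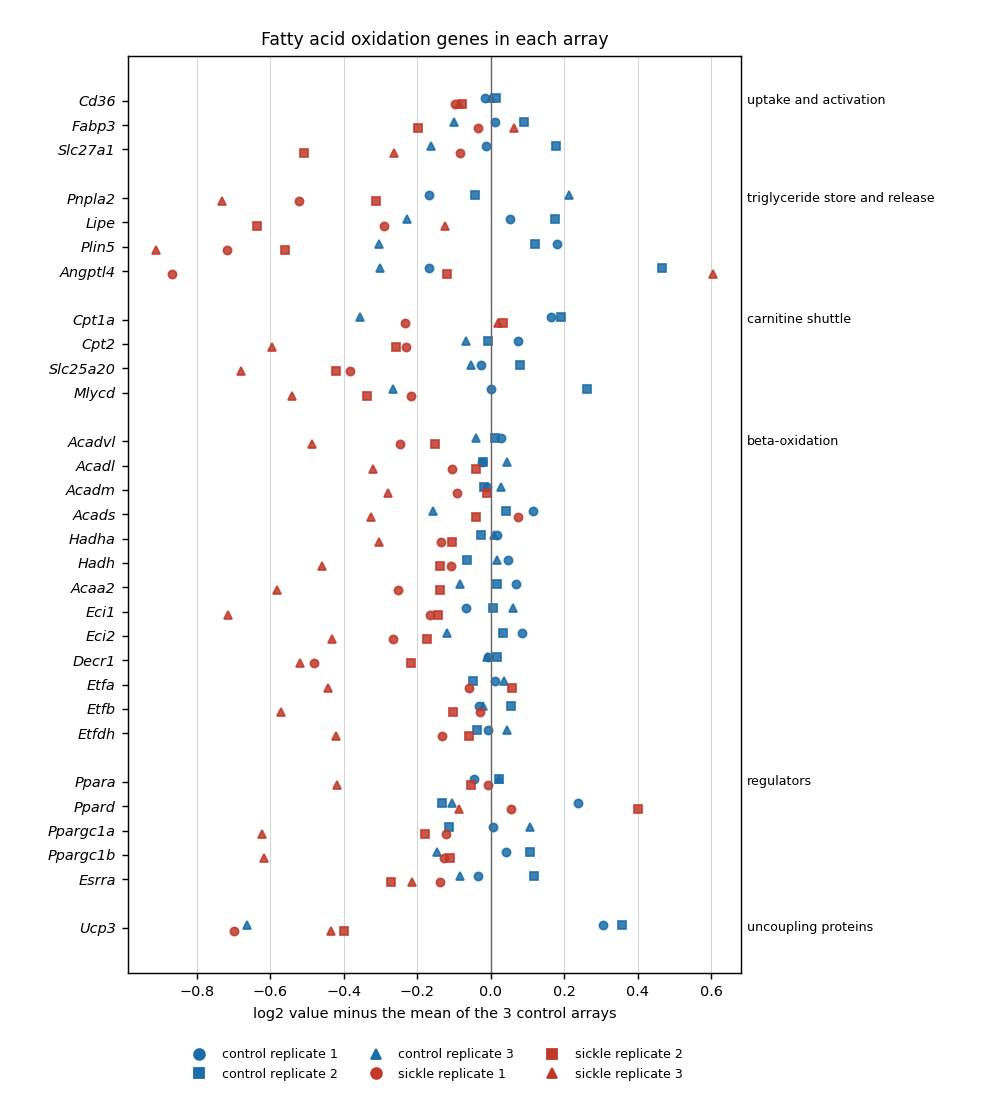
Each row is a gene and each point 1 array, plotted as its log2 value minus the mean of the 3 control arrays; blue points are control and red points sickle, with the marker shape giving the replicate number. Red points lie to the left of blue ones in most rows, and the red triangle of sickle replicate 3 is the leftmost point in all 13 beta-oxidation rows.

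Sickle replicate 3 stood apart from the other arrays over all genes, with a score of 43.3 on the first principal component against -15.1 to -2.31 in the other 5. It was the lowest of the 3 sickle arrays for 22 of the 30 genes (73.3%, against 41.3% of all genes). With each gene taken relative to its control mean, the median of the 30 was -0.43 in that array and -0.14 in both other sickle arrays, while the control arrays had 0.01, 0.02 and -0.06. Without sickle replicate 3 the median difference was -0.15, 28 of the 30 genes were lower, and 6 were lower at an unadjusted p of 0.05, against 4.37% of all genes. Sickle replicates 1 and 2 both lay below every control array for 17 of the 30, against 13.4% of all genes. None of the 30 passed the adjustment in that fit, where again 0.0139% of all genes were called lower.

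The count at an unadjusted p of 0.05 also rested on control arrays, since it was 4 without control replicate 1 and 5 without control replicate 2. The number of genes with a lower mean in sickle was between 27 and 29 when any 1 array was left out, and 28 when control replicate 3 and sickle replicate 3 were both left out.

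Other cells' RNA differed between these arrays. All 12 macrophage markers had higher means in sickle, and their summed intensity was between 2489 and 2868 in control arrays, against 2853, 3199 and 6605 in the sickle arrays in order of replicate. Of 12 fibroblast markers 11 were higher, with a summed intensity between 10542 and 11637 in control and of 11147, 10901 and 26799 in the sickle arrays. Of 17 sarcomere genes, which mark cardiomyocytes, 11 were lower; their summed intensity was 97317 to 99355 in control, 99472 in sickle replicate 1, 98069 in sickle replicate 2 and 89373 in sickle replicate 3, which was the lowest sickle array for all 17. With sickle replicate 3 left out, 7 of the 17 sarcomere genes were lower (41.2%, against 49.8% of all genes) and 10 higher. Their median difference was then 0.026. Higher means then held for 10 of the 12 macrophage and 7 of the 12 fibroblast markers. Of 14 red cell genes all had higher means in sickle and 9 passed the adjustment, against 36 called higher among all 21506 genes. Without sickle replicate 3, 13 of the 14 were higher and 5 passed, against 21 genes called in either direction among all 21506. In a bulk sample, fewer cardiomyocytes and less RNA per cardiomyocyte cannot be told apart, and the part of these shifts in the lower values of sickle replicate 3 was not tested. Centring each array on its sarcomere median takes the same amount from every gene of that array. It moved the median difference of the 30 genes from -0.26 to -0.25, and 29 were lower before and after. With so small a move the signs could hardly change, so the part of cardiomyocyte content was not tested by it. Fat cells also hold several of the genes studied here. Of 10 fat cell markers 6 were lower and 4 higher, and their summed intensity of 5454 to 5783 in control and 4982 to 5236 in sickle was mostly that of Fabp4, which is also among the uptake genes. The other 9 summed to 724 to 765 in control and 736 to 981 in sickle. Adipoq, the adipokine that defines these cells, was at the 13.1 percentile of all genes, with 3.22 to 3.73 in every array. The part of fat cells was not tested. Among 12 capillary endothelial markers 7 had lower means, with a summed intensity of 9880 to 10863 in control and 10354 to 10731 in sickle. Without sickle replicate 3, 6 lay below every control array (50%, against 13.4% of all genes). In that comparison 3 lay above every control array, against 2902 of all 21506 genes. The part of endothelial cells was not tested. Arrays give no true zero, so no marker could be said to be absent.

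Control replicate 3 differed from its group mates in another way. It held RNA of atrial genes, with Sln at 8.08 and Myl7 at 7.75, against at most 3.36 and 4.78 in the other 5 arrays. Over the 6 atrial genes listed, the median level was 7.47 there and at most 5.17 in the other 5 arrays. Their summed intensity did not set that array apart. It was 7578 there, 6494 and 6921 in control replicates 1 and 2, and 8229, 9430 and 13241 in the sickle arrays. Control replicate 3 was also the lowest control array for 17 of the 30 genes, against 7485 of all 21506 genes. The 17 included all 4 genes of the carnitine shuttle and Ucp3. That array was likewise the lowest control for 17 of 29 oxidative phosphorylation genes and 7 of 11 Krebs cycle genes. The part of that atrial RNA in its lower values was not tested.

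Promoter windows, from 250 bases before to 50 after each RefSeq gene start (build GRCm38.p6), were at hand for 26 of the 30 genes. They were searched on both strands for the element bound by PPAR with its partner RXR, which is 2 copies of AGGTCA with 1 base between them, and for TNAAGGTCA, the site of estrogen-related receptors. No window of the 26 held the exact repeat, which 0.0481% of all 27025 genes with a window had, nor TNAAGGTCA, which 1.43% had. With up to 2 mismatches the repeat was found for 4 of the 26 (15.4%, against 4.40% of all genes). The single copy AGGTCA, which can lie within the repeat, was found for 6 (23.1%, against 18.1%). The stretches that held the repeat are shown in the sense of the gene, with the match in capitals, followed by the stretch with a single copy from Plin5, the gene with the largest difference.
Slc25a20 (chr9:108662134-108662162, plus strand): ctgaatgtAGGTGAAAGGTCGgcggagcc
Ucp3 (chr7:100472920-100472972, plus strand): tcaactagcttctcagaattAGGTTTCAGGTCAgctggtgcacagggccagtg
Cd36 (chr5:17835927-17835979, minus strand): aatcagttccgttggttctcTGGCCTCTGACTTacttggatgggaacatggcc
Etfa (chr9:55512288-55512340, minus strand): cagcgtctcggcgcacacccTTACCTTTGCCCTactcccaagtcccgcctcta
Plin5 (chr17:56117693-56117738, minus strand): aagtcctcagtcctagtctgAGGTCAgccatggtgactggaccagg
In Cd36 and Etfa the match is on the opposite strand, so the capitals show its reverse complement. The match begins 51 bases before the gene start in Ucp3, 63 in Cd36 and 77 in Etfa, and 6 bases after it in Slc25a20. Among these genes Slc25a20 had no overlap between groups and kept a difference of -0.40 without sickle replicate 3, while Etfa had overlapping groups and -0.00059, so genes with a like match differed in their values. A match of letters is not evidence of binding, and elements outside these windows were not searched.

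The first step is uptake, for which 3 of 4 listed genes were measured. Cd36, the fatty acid translocase of the cell surface, had 12.80, 12.83 and 12.81 in control and 12.72, 12.73 and 12.73 in sickle. The 2 groups did not overlap, yet the difference was small, at -0.09 (95% interval -0.28 to 0.11). Fabp3, which carries fatty acids within the heart muscle cell, had 8.75, 8.83 and 8.64 in control and 8.71, 8.54 and 8.80 in sickle, with a difference of -0.06 (95% interval -0.31 to 0.19). Its groups overlapped, and sickle replicate 3 was the highest sickle array. Slc27a1, a fatty acid transport protein, differed by -0.29 (95% interval -0.61 to 0.04), with overlapping groups and sickle replicate 2 lowest at 8.43; it was -0.17 without that array. No uptake gene reached an unadjusted p of 0.05. Sickle replicate 3 was the lowest sickle array for 0 of these 3 genes. Leaving it out gave differences of -0.09, -0.12 and -0.30 for Cd36, Fabp3 and Slc27a1.

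By median, the step with the lowest values was the 4 genes that store and release triglyceride. Plin5, which had single AGGTCA copies in its promoter windows, coats lipid droplets in oxidative tissues and holds them against mitochondria. It had 9.75, 9.69 and 9.26 in control and 8.85, 9.00 and 8.65 in sickle, without overlap. Mean levels were 9.56 ± 0.26 in control and 8.83 ± 0.18 in sickle (SD, n = 3), a 1.66-fold lower level (difference -0.73 ± 0.16, SE; limma adjusted p = 0.278). The difference ran from -0.88 without control replicate 3 to -0.64 without sickle replicate 3. Pnpla2, the lipase that takes the first fatty acid off stored triglyceride, had 10.42, 10.55 and 10.80 in control and 10.07, 10.28 and 9.86 in sickle, again without overlap. It was 1.44-fold lower (-0.52 ± 0.15; limma adjusted p = 0.423), and -0.42 without sickle replicate 3. Plin5 protein is known to restrain the Pnpla2 lipase, so a droplet-coating gene and the gene of the lipase it restrains both had lower values.

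Lipe, hormone-sensitive lipase, acts on the diglyceride that Pnpla2 leaves. It had 6.93, 7.06 and 6.65 in control and 6.59, 6.24 and 6.76 in sickle. The highest sickle array, replicate 3, lay above the lowest control array, and the difference was -0.35 (95% interval -0.73 to 0.03), with -0.21 when sickle replicate 2 was left out and -0.46 when sickle replicate 3 was. Angptl4, a secreted inhibitor of lipoprotein lipase and a PPAR target, varied most between mice. It had 5.96, 6.60 and 5.83 in control and 5.26, 6.01 and 6.74 in sickle, so the sickle arrays spanned the lowest and the highest of the 6 values. Its difference of -0.13 (95% interval -0.97 to 0.72) turned to 0.24 without sickle replicate 1 and to 0.11 without control replicate 2, and was -0.49 without sickle replicate 3.

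**Figure D2:**
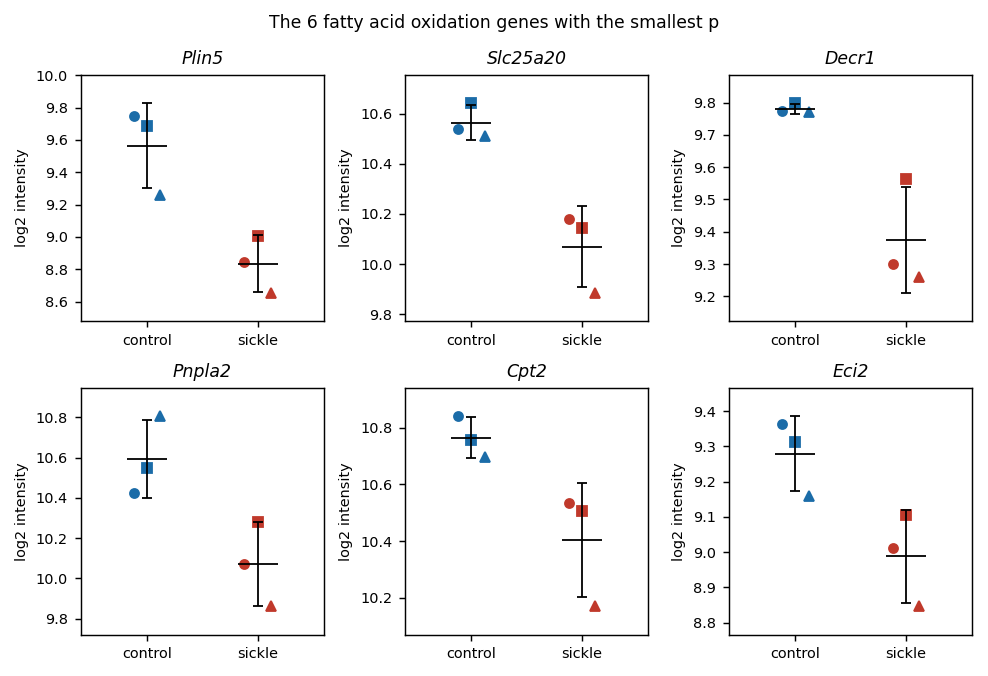
Log2 intensity in each array of the 6 genes with the smallest p, control in blue and sickle in red, with circles, squares and triangles for replicates 1, 2 and 3; horizontal lines are group means and error bars SD (n = 3). In each of the 6 panels all sickle points lie below all control points; the vertical axes do not start at 0 and differ between panels.

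At the carnitine shuttle, 4 of 5 listed genes were measured and 3 were lower at an unadjusted p of 0.05 (against 4.38% of all genes). Slc25a20, a gene with a match to the PPAR repeat near its start, encodes the carrier that swaps acylcarnitine for carnitine across the inner mitochondrial membrane. It had 10.54, 10.64 and 10.51 in control and 10.18, 10.14 and 9.88 in sickle. All sickle values lay below all control values, and the spread within the groups was small (SD 0.07 and 0.16, n = 3). The gene was 1.41-fold lower (-0.49 ± 0.11; limma adjusted p = 0.304) and differed by -0.40 without sickle replicate 3 (95% interval -0.62 to -0.18, limma adjusted p = 0.304). Cpt2, which returns the acyl group to coenzyme A on the matrix side, had 10.84, 10.76 and 10.70 in control and 10.53, 10.51 and 10.17 in sickle. It too showed no overlap, with a difference of -0.36 (95% interval -0.65 to -0.08) and of -0.24 without sickle replicate 3 (95% interval -0.47 to -0.02). Mlycd, which removes malonyl-CoA, the inhibitor of carnitine palmitoyltransferase in the outer membrane, had 8.18, 8.44 and 7.91 in control and 7.96, 7.84 and 7.63 in sickle. Its groups overlapped at control replicate 3, with a difference of -0.36 over all arrays, -0.28 without sickle replicate 3 and -0.23 without control replicate 2.

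Cpt1a, the liver form of that outer-membrane enzyme, did not follow the other shuttle genes. It had 8.88, 8.91 and 8.36 in control and 8.49, 8.75 and 8.74 in sickle, and control replicate 3 was the lowest of the 6 arrays. The difference was -0.06 (95% interval -0.45 to 0.33). It was -0.24 without control replicate 3, and turned to 0.022, 0.036 and 0.027 without control replicate 1, control replicate 2 and sickle replicate 1. The heart muscle form is Cpt1b, which was not analysed here.

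The 13 measured beta-oxidation genes all had lower means in sickle, from -0.41 to -0.10 with a median of -0.23. In 9 of them every sickle array lay below every control array (69.2%, against 8.36% of all genes), and 4 had an unadjusted p under 0.05 (30.8%, against 4.38%), of which 1 did so without sickle replicate 3. In all, 11 were below the control mean in each of the 3 sickle mice (84.6%, against 22.3% of all genes). Decr1, a dienoyl-CoA reductase needed to oxidise polyunsaturated fatty acids, had the largest difference of the step. It had 9.77, 9.80 and 9.77 in control and 9.30, 9.56 and 9.26 in sickle, so the 3 control arrays were nearly equal and every sickle array lay well below them. It was 1.32-fold lower (-0.41 ± 0.11; limma adjusted p = 0.407), and differed by -0.35 without sickle replicate 3. The isomerases Eci1 and Eci2 also serve unsaturated fatty acids. Eci2 had 9.36, 9.31 and 9.16 in control and 9.01, 9.11 and 8.85 in sickle, a difference of -0.29 (95% interval -0.54 to -0.04). Eci1 had 10.61, 10.68 and 10.73 in control and 10.51, 10.53 and 9.96 in sickle. Neither isomerase had overlapping groups, but the -0.34 of Eci1 was drawn by sickle replicate 3 and was -0.15 without it.

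The acyl-CoA dehydrogenases, which start each turn of the cycle, are graded by the chain length they take. Acadvl, for very long chains, had 11.10, 11.08 and 11.03 in control and 10.82, 10.92 and 10.58 in sickle, with no overlap and a difference of -0.30 (95% interval -0.55 to -0.04). Acadl, for long chains, differed by -0.16, Acadm, for medium chains, by -0.13, and Acads, for short chains, by -0.10, with each 95% interval spanning 0. Without sickle replicate 3 these were -0.073 for Acadl, -0.052 for Acadm and 0.018 for Acads. Acadm had 12.91, 12.90 and 12.95 in control and 12.82, 12.91 and 12.64 in sickle, so that outside sickle replicate 3 the values were close to those of control. The order from very long to short chain follows the point estimates, and differences between the 4 genes were not tested. Their intervals overlap one another.

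Later enzymes of the cycle had lower values of similar size. Acaa2, the thiolase that splits off acetyl-CoA, had 11.71, 11.65 and 11.55 in control and 11.39, 11.50 and 11.06 in sickle, a difference of -0.32 (95% interval -0.63 to -0.02) with no overlap, and -0.20 without sickle replicate 3. Hadh, a hydroxyacyl-CoA dehydrogenase, had 12.52, 12.40 and 12.49 in control and 12.36, 12.33 and 12.01 in sickle. Hadha, the alpha subunit of the trifunctional protein that carries out the last 3 reactions on long chains, had 12.60, 12.56 and 12.59 in control and 12.45, 12.48 and 12.28 in sickle. Both lacked overlap, with differences of -0.24 and -0.18, and of -0.12 for each without sickle replicate 3. The electron transfer flavoprotein genes Etfa and Etfb and the gene of its ubiquinone oxidoreductase, Etfdh, pass the electrons on to the respiratory chain. Etfa had 11.56, 11.50 and 11.59 in control and 11.49, 11.60 and 11.10 in sickle, and Etfb 10.15 in sickle replicate 3 against 10.62 to 10.78 in all other arrays. For these 2 genes the lower mean lay in 1 array, and without it the differences were -0.00059 and -0.066. Etfdh did not overlap between groups, but moved from -0.21 to -0.10 without that array.

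**Figure D3:**
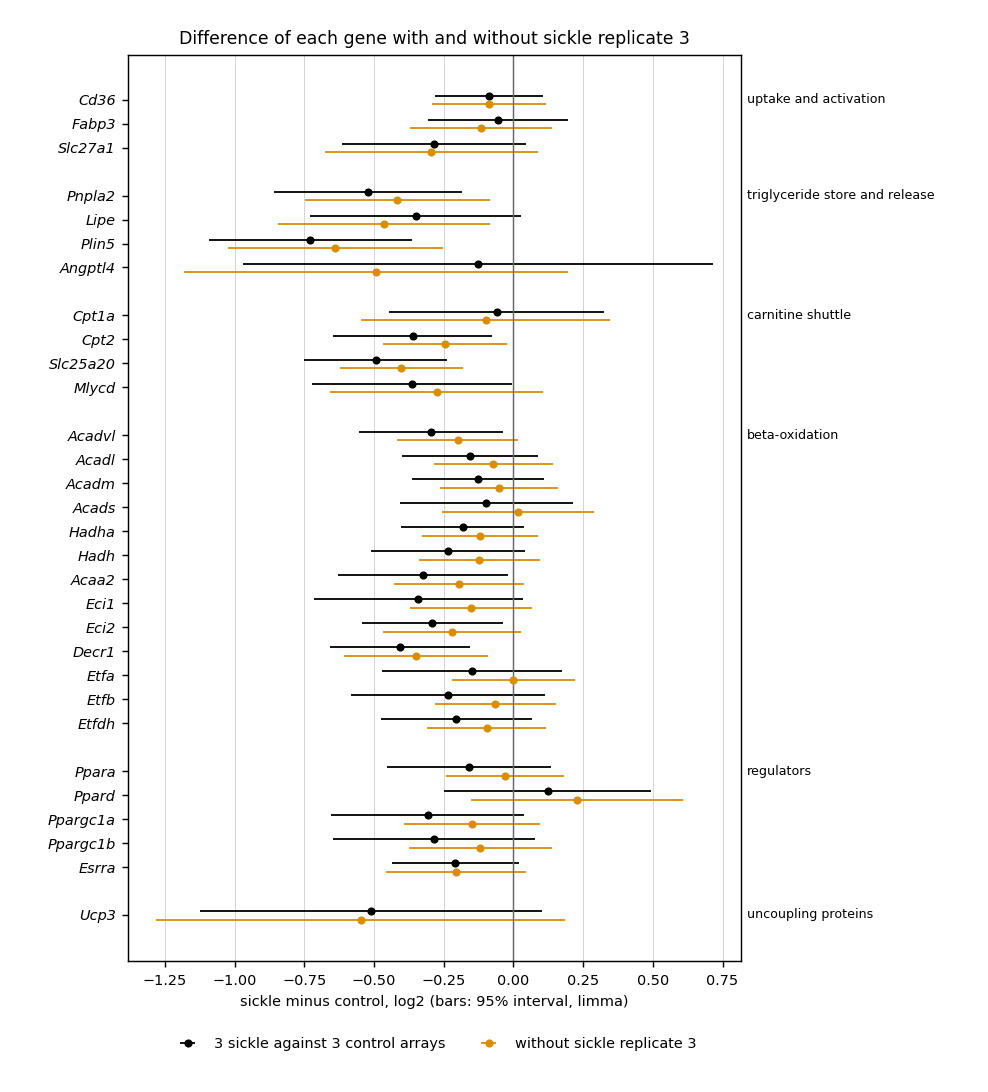
Sickle minus control difference (log2) of each gene with its 95% interval from limma, over all 6 arrays in black and without sickle replicate 3 in orange. Most orange points lie closer to 0 than the black ones, as for Etfa (-0.15 and -0.00059), while Cd36, Esrra and Ucp3 hardly move and a few, such as Lipe and Angptl4, move further from 0.

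Among the regulators, Ppara itself differed by -0.16 (95% interval -0.45 to 0.13). It had 7.99, 8.06 and 8.06 in control and 8.03, 7.98 and 7.62 in sickle, so the lower mean came from sickle replicate 3, and the difference was -0.03 without it (95% interval -0.24 to 0.18). Ppard, the delta receptor of the family, was the 1 gene of the 30 with a higher mean. It had 8.14, 7.77 and 7.80 in control and 7.96, 8.31 and 7.82 in sickle, a difference of 0.12 (95% interval -0.25 to 0.49) that was -0.016 without sickle replicate 2. Ppargc1a, which encodes PGC-1-alpha, had 10.47, 10.35 and 10.57 in control and 10.34, 10.29 and 9.84 in sickle. Its groups did not overlap, although sickle replicate 1 was only just below the lowest control array, and the difference of -0.31 was -0.15 without sickle replicate 3. The related coactivator gene Ppargc1b differed by -0.28, or -0.12 without that array. Esrra, encoding ERR-alpha, had 8.06, 8.21 and 8.004 in control and 7.95, 7.82 and 7.88 in sickle. It had no overlap, and its difference of -0.21 (95% interval -0.44 to 0.02) was also -0.21 without sickle replicate 3. None of the 5 regulators reached an unadjusted p of 0.05.

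Ucp3, a mitochondrial carrier of the uncoupling protein family and a PPAR target in muscle, had 7.90, 7.95 and 6.93 in control and 6.90, 7.20 and 7.16 in sickle. Control replicate 3 lay with the sickle arrays. The difference of -0.51 (95% interval -1.12 to 0.10) became -0.84 without control replicate 3 (limma adjusted p = 0.236) and -0.33 without control replicate 2. With sickle replicate 3 left out it was -0.55.

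Other genes of the same pathways were taken from lists of known roles, drawn up with earlier results of these arrays known. Of 83 further measured genes, 60 were lower (72.3%, against 51.6% of all genes), by a median of -0.10, and 0 passed the adjustment over all genes; 11 were lower at an unadjusted p of 0.05 (13.3%, against 4.38% of all genes). Without sickle replicate 3 their median was -0.030, with 52 of the 83 lower (62.7%, against 49.8% of all genes). Sickle replicates 1 and 2 lay below every control array for 22 of the 83 (26.5%, against 13.4% of all genes). They lay above every control array for 8 of the 83, against 2902 of all 21506 genes. The 17 other PPAR-alpha targets had a median of -0.27, with 14 lower. Of these, 7 had an unadjusted p under 0.05 (41.2%, against 4.38% of all genes), and 8 had every sickle array below every control array (47.1%, against 8.36%). In the other direction 1 of the 17, Txnip, was higher at an unadjusted p of 0.05, against 925 of all 21506 genes. Its difference was 0.49, with overlapping groups. Without sickle replicate 3 the median of the 17 was -0.23, and that array was the lowest sickle array for 6 of the 17 (35.3%), near the 41.3% of all genes.

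In that list Pdk4, Acot1 and Acot2 had larger differences than any of the 30 genes. Pdk4, the kinase that shuts off pyruvate dehydrogenase and so spares glucose, had 11.62, 12.07 and 11.85 in control and 9.49, 10.50 and 10.93 in sickle. It was 2.91-fold lower (-1.54 ± 0.33; limma adjusted p = 0.283), and sickle replicate 3 was the sickle array nearest to control. Acot1 and Acot2 are thioesterases that release free fatty acid from acyl-CoA. Acot1 had 6.71, 7.27 and 7.57 in control and 5.59, 5.60 and 5.78 in sickle (limma adjusted p = 0.0528), and Acot2 had 12.27, 12.29 and 12.59 in control and 11.44, 11.67 and 11.55 in sickle (limma adjusted p = 0.0739). In both, the sickle arrays lay close together below every control array. Aqp7, a channel for the glycerol that triglyceride breakdown yields, had 10.01, 10.19 and 10.15 in control and 9.51, 9.48 and 9.37 in sickle (-0.66 ± 0.10; limma adjusted p = 0.0737). Acot1 also passed the adjustment under several alternatives, with adjusted p-values given in the closing section. Pdk4, Acot1 and Acot2 were named with earlier results of these arrays known. Aqp7 was named as 1 of the 3 genes with the smallest p in its list.

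**Figure D4:**
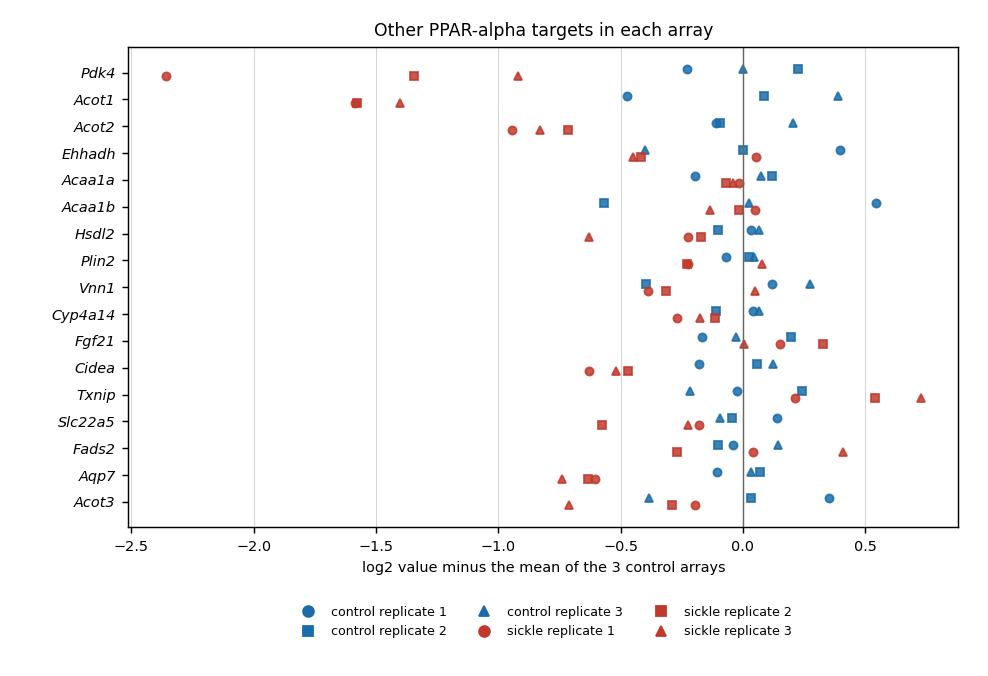
Each row is 1 of 17 further PPAR-alpha targets and each point 1 array, as its log2 value minus the control mean; control is blue, sickle red, and marker shapes give the replicate number. In 8 rows (Pdk4, Acot1, Acot2, Cidea, Aqp7, Hsdl2, Slc22a5 and Cyp4a14) all 3 sickle points lie left of all control points. The triangle of sickle replicate 3 is set apart to the left for Hsdl2, at -0.63 against -0.22 and -0.17. For Pdk4 it is the sickle point nearest to control, at -0.92 against -2.36 and -1.34. For Txnip the sickle points lie right of the control mean, at 0.21, 0.54 and 0.73.

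The remaining lists had smaller shifts. Of 13 other uptake and activation genes 8 were lower, by a median of -0.05, or -0.019 without sickle replicate 3, with Dbi, which encodes the acyl-CoA-binding protein, at -0.39 ± 0.09 (limma adjusted p = 0.345). Of 21 other genes of mitochondrial and related oxidation 14 were lower, by a median of -0.04, which was 0.02 without sickle replicate 3; Nudt7, a peroxisomal coenzyme A hydrolase, had the smallest p of this list (-0.53 ± 0.15; limma adjusted p = 0.437). Of 12 other triglyceride genes 9 were lower, with a median of -0.14, which was -0.047 without sickle replicate 3, and Fitm2, which helps form lipid droplets, had -0.51 ± 0.14. Of 20 other regulators 15 were lower, by a median of -0.08; without sickle replicate 3 this was 13, by a median of -0.0070. Tfam, the transcription factor of mitochondrial DNA, had -0.23 ± 0.10, and Nrip1, a corepressor of oxidative genes, had 0.20 ± 0.10 with every sickle array above every control array.

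The steps differed in how far they rested on sickle replicate 3. It was the lowest sickle array for 13 of 13 beta-oxidation genes, 3 of 4 shuttle genes, 4 of 5 regulators, 2 of 4 triglyceride genes and 0 of 3 uptake genes. In order of replicate, the 3 sickle arrays had beta-oxidation medians of -0.13, -0.11 and -0.44 against the control mean, with -0.23, -0.30 and -0.57 for the carnitine shuttle. The triglyceride genes had medians of -0.62, -0.44 and -0.43. The control arrays, in the same order, spread more for the shuttle (0.04, 0.13 and -0.17) and the triglyceride genes (-0.06, 0.15 and -0.26). For beta-oxidation each control array had 0.01. The genes behind the triglyceride medians of the sickle arrays differed by mouse. Plin5 and Pnpla2 were lowest in sickle replicate 3, at -0.91 and -0.73, whereas Lipe was at -0.12 and Angptl4 at 0.61 there, against -0.29 and -0.87 in sickle replicate 1. For comparison, 29 oxidative phosphorylation genes had -0.05, -0.10 and -0.36 and 11 Krebs cycle genes -0.0033, -0.021 and -0.37. Low values in sickle replicate 3 were thus also present in other mitochondrial genes, and without that array the median difference was -0.12 for beta-oxidation, -0.26 for the shuttle and -0.48 for triglyceride genes, against -0.08 and -0.020 for oxidative phosphorylation and the Krebs cycle. Lower means were found for all 29 oxidative phosphorylation genes and all 11 Krebs cycle genes. Every sickle array lay below every control array for 44.8% and 18.2% of them, against 69.2% for beta-oxidation and 8.36% of all genes. All 3 sickle arrays were below the control mean for 79.3% and 54.5%, against 84.6% for beta-oxidation and 22.3% of all genes. Differences between these groups of genes were not tested.

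**Figure D5:**
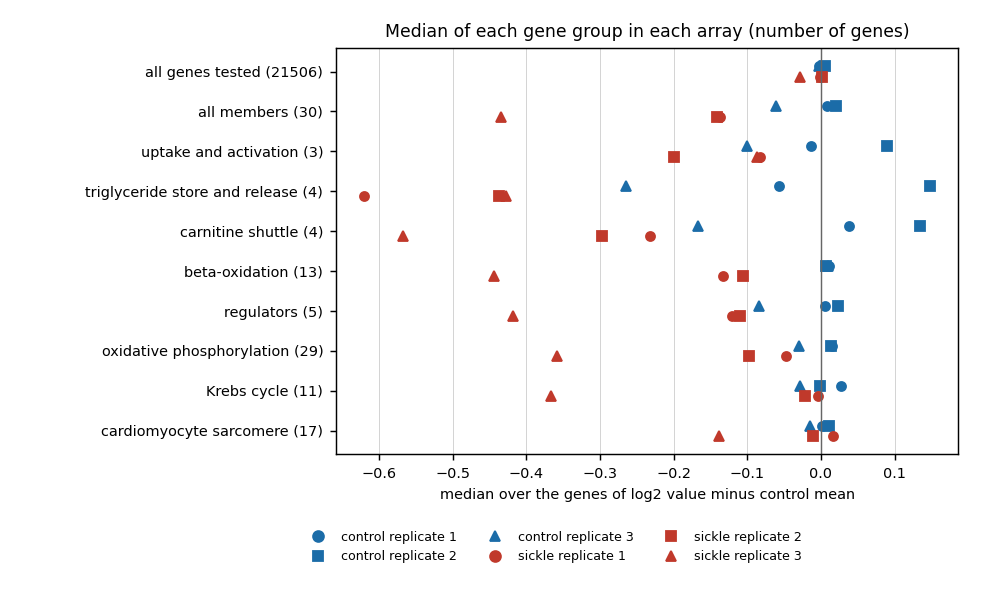
Median over the genes of each group (number of genes in brackets, with "all members" standing for the 30 genes) of the log2 value minus the control mean, 1 point per array, with control in blue and sickle in red. The triangle of sickle replicate 3 is far to the left for beta-oxidation, oxidative phosphorylation and the Krebs cycle, whereas the triglyceride genes have all 3 sickle arrays at -0.43 or below. Control replicate 3 is at -0.26 for the triglyceride genes and at -0.17 for the carnitine shuttle.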

How the data were processed

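The authors deposited 1 table of log2 intensities, summarised by RMA per the submitters' processing notes; that the scale is log2 was judged from its range. RMA settings, versions and batches were not found in the labels. Of 25293 rows, 22030 had 1 gene symbol in the platform annotation. The brightest row per gene was kept, giving 21506 genes with no filter on dim ones. Groups came from sample titles.

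Limma 3.58.1 in R 4.3.3 (lmFit and eBayes, group as the only term, two-sided, Benjamini-Hochberg over all genes, threshold 0.05) was fitted to 6 arrays and, again, without sickle replicate 3. It was tested on simulated data. Summed intensities add values taken back from log2. Arrays have no read depth; their number limits the precision.

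Genes and lists were chosen with earlier results of these data known. All 34 genes are named; other lists give at most the 3 genes of smallest p, plus Pdk4, Acot1 and Acot2. Alternatives changed the variance model, dim-gene filter, normalisation, centring, array weights, replicate block, rows per gene and arrays used; leaving out control replicate 3 and sickle replicate 3 together was added after the data were seen. Figures used matplotlib 3.10.9.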

Additional observations from a re-analysis of the deposited data

How the results depend on the processing

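Each of the 30 genes was refitted under 16 alternatives, 480 differences in all. The variance trend, dim-gene filter, replicate block, mean over rows of a gene and lack of shared variance could not change these differences. Direction was thus fixed in advance in those settings. Of the 480 differences, 471 kept their direction and their side of an adjusted p of 0.05. The other 9 turned their direction, in 6 genes, each when arrays were left out. Over those fits Cpt1a ran from -0.28 to 0.036, Angptl4 from -0.64 to 0.24, Fabp3 from -0.17 to 0.015, Acads from -0.18 to 0.018 and Etfa from -0.25 to 0.018, and Ppard was -0.016 without sickle replicate 2. The median difference of the 30 ran from -0.31 to -0.15 when 1 array was left out, and the count at an unadjusted p of 0.05 from 4 to 10. None of the 30 passed the adjustment under the 16 alternatives, but without sickle replicate 3 a variance trend called 1 gene, Slc25a20 (limma adjusted p = 0.0407). The count over all genes in that fit is not given here. Acot1 passed with the variance trend (limma adjusted p = 0.0295), the dim-gene filter (0.0406), a second quantile normalisation (0.0407), sarcomere centring (0.0249), array weights (0.0443) and without control replicate 1 (0.0257). Acot2 passed with the trend (limma adjusted p = 0.0232) and the filter (0.0411). Genes called in all numbered 50 with the trend and 42 of 10753 with the filter. They numbered 44 with the second normalisation, 41 with sarcomere centring and 50 with array weights. With the replicate block 0 of the 30 were called and 10 were lower at an unadjusted p of 0.05. The median of the 30 stayed at -0.26, which the block could not change. The labels do not say whether the numbers pair the arrays. Same-numbered arrays had correlations of 0.11, -0.05 and 0.05 between their deviations from the group means. Arrays with unlike numbers had -0.12 to 0.07, so these values do not settle whether the numbers pair the arrays. Over all genes 39 were called, against 12 with the block, 0 without shared variance, 13, 5 and 4 without control replicates 1, 2 and 3, 21 without sickle replicate 2 or 3, and 0 without control replicate 3 and sickle replicate 3; the cause was not tested.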
